A study of Mus musculus with 9 samples.

Results

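Interferon-stimulated genes were followed through RNA-seq libraries of T cells that recognize a tumor antigen. The set was a given list of 42 genes, found in the count tables through their Ensembl identifiers, out of 32976 gene rows per table. It divided into 33 genes of the type I response, such as the Ifit, Oas and Mx families, and 9 genes for the GTPases that interferon gamma induces most, the Gbp and Irg families. Gbp5 was not analysed here because its identifier matched no row, so 41 genes were measured, of which 8 encode GTPases.

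The cells were CD8+ tumor-infiltrating lymphocytes specific for GSW11, an antigen of CT26, a colon carcinoma line of BALB/c mice. All the mice were wild type, bore CT26.WT tumors under the skin and had received antibody against PD-1 (clone RMP1-14) on days 3, 6 and 9, so no group was untreated. Cells were sorted by how strongly they bound the tetramer, and the groups were TetHighProg (replicates 1, 2 and 5), of high avidity and from tumors that progressed, TetLowReg (replicates 6, 7 and 8), of low avidity and from tumors that regressed, and TetLowProg (replicates 9, 10 and 12), of low avidity and from tumors that progressed. Both groups from progressing tumors were sorted from the same set of tumors, and the labels do not say which libraries share one, so these groups may not be independent and the p-values measure only the spread between these libraries, 3 in each group.

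Interferons are secreted proteins that warn cells of infection and shape immune responses. Interferons alpha and beta bind the receptor Ifnar1/Ifnar2 on nearly every cell and act through factors such as Stat2 and Irf9 at the interferon-stimulated response element (ISRE). Interferon gamma, which activated T cells and NK cells make, binds Ifngr1/Ifngr2 and acts at the gamma-activated site (GAS) and through Irf1, which also binds the ISRE. Many interferon-stimulated genes answer to both kinds of interferon, so the division into lists is one of emphasis.

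These elements can be read in the promoters of the genes themselves. The RefSeq promoter table for build GRCm38.p6, which holds 250 bases before to 50 bases after each start site, has an entry for 32 of the 42 genes. On either strand, the ISRE core GAAANNGAAA (TTTCNNTTTC on the other strand) occurred in 19 of the 32 (59.4%), against 3.99% of 27025 genes in the table. It occurred in 12 of 24 type I genes and in 7 of 8 GTPase genes. The GAS letters TTCNNNGAA, which read the same on both strands, occurred in 12 of the 32 (37.5%), against 9.55% of all genes. The following promoters belong to genes whose counts are described below, with both motifs in capitals and positions counted from the start site. Isg15 (chr4:156200769-156201068, minus strand) has 3 overlapping ISRE cores at -78, -72 and -66. Ifitm2 (chr7:140955912-140956211, minus strand) has 1 at -46. Igtp (chr11:58199306-58199605, plus strand) has a GAS at -45 and an ISRE core at -34, and its chromosomal neighbor Irgm2 (chr11:58214727-58215026, plus strand) has the same pair at -75 and -64. Gbp7 (chr3:142530086-142530385, plus strand) has GAS letters at -106 and -87 and an ISRE core at -53. Ifi47 (chr11:49076337-49076636, plus strand) holds neither motif in this window.
Isg15: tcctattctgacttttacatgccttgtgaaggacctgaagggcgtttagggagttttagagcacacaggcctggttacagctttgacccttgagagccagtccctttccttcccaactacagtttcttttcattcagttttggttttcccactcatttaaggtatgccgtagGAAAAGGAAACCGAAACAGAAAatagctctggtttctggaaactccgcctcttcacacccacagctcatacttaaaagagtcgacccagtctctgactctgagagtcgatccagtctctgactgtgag
Ifitm2: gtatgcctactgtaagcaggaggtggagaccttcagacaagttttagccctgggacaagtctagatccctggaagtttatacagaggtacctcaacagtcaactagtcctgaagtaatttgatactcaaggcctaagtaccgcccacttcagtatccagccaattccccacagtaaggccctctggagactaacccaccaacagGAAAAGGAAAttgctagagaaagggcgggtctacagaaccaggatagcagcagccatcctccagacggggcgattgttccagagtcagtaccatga
Igtp: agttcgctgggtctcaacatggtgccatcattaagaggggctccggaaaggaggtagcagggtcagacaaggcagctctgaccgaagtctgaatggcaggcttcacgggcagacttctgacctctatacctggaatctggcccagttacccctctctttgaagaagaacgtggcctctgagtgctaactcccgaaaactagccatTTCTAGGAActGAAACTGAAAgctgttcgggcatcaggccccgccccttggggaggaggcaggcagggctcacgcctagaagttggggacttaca
Irgm2: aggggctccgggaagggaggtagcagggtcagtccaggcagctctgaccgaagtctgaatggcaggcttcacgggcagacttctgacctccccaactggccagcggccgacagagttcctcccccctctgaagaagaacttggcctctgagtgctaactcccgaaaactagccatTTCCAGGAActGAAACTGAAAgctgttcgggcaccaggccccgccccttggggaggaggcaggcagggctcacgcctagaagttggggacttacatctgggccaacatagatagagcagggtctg
Gbp7: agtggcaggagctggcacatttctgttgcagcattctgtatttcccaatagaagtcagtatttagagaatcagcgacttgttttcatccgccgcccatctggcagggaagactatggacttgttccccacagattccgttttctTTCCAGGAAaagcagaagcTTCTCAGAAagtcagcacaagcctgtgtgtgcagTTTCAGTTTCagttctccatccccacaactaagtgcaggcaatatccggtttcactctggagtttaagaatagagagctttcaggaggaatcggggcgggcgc
Ifi47: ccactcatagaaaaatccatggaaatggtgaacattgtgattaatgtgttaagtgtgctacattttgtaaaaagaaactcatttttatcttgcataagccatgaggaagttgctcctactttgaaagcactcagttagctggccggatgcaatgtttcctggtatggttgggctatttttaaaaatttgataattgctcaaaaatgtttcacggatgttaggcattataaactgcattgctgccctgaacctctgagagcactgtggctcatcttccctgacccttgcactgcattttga

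The libraries differed more within groups than between them. Gene counts totaled 16405306 to 36429515 per library, and from 599 to 8071 genes reached 10 counts, the minimum at which a gene was taken as found. TetHighProg 1 and 2, TetLowReg 6 and TetLowProg 10 held at most 1298 such genes, and the other 5 libraries held 3181 or more. Of the markers of CD8+ T cells, 7 of 7 (Cd3d, Cd3e, Cd3g, Cd8a, Cd8b1, Trac and Trbc2) were found in 5 libraries, 6 in TetHighProg 1, 5 in TetLowReg 6 and in TetLowProg 10, and 2 in TetHighProg 2. Their summed share of gene counts ran from 0.309% to 0.466% in TetHighProg, from 0.0431% to 0.674% in TetLowReg and from 0.177% to 0.468% in TetLowProg. Markers of B cells (Cd79a, Cd79b and Ms4a1) made up 0.0558% in TetLowReg 7, 0.0681% in TetLowReg 8 and 0.111% in TetLowProg 12, where class II genes also took 3.92% to 6.03%. In the other 6 libraries no B cell marker passed 1 count, and the class II genes took at most 0.148%. The 10 markers of macrophages and dendritic cells took 0.823% in TetLowReg 7, most of it Lyz2 (299515 counts), 0.122% in TetLowReg 8 and 0.0626% in TetLowProg 12, but also 0.154% in TetHighProg 1 and at most 0.0165% in the other 5. Cd4 and Foxp3 were found only in TetLowReg 7 and 8, at 0.00588% and 0.00382%. Globin genes were found only in TetLowReg 7 and 8 and TetLowProg 12, at 0.00312% to 0.00696%. The NK cell markers Ncr1 and Klrb1c had 0 counts throughout, and the 6 markers of tumor and stroma took at most 0.00837%. Mitochondrially encoded genes took 44.5% of the counts in TetLowReg 7. The cDNA was amplified by 22 PCR cycles without molecular identifiers, so copies were counted separately and every interval given here covers counting error only. In bulk samples, fewer cells of a type and less RNA per cell cannot be told apart.

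The number of interferon-stimulated genes found followed this division of the libraries. It was 7, 0 and 22 of 41 in TetHighProg 1, 2 and 5, 2, 25 and 16 in TetLowReg 6, 7 and 8, and 31, 4 and 22 in TetLowProg 9, 10 and 12. Every group had a library with 4 or fewer and one with 22 or more, and the means of 9.67 ± 11.2, 14.3 ± 11.6 and 19.0 ± 13.7 (SD, n = 3) differed by less than the spread within groups. Of the 5813 genes abundant enough for a test, 46.4% were found in TetHighProg 5 and 81.2% to 89.5% in TetLowReg 7 and 8 and TetLowProg 9 and 12. TetHighProg 5 held as many interferon-stimulated genes as TetLowProg 12 (53.7% of the 41), but the 41 were not filtered for abundance as the tested genes were. Of the 24 that passed the same filter, 83.3% were found in TetHighProg 5. In TetLowReg 7, TetLowReg 8, TetLowProg 9 and TetLowProg 12 the shares were 87.5%, 54.2%, 95.8% and 83.3%. All tested genes had 86.9%, 81.2%, 89.5% and 88.0% there.

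**Figure D1:**
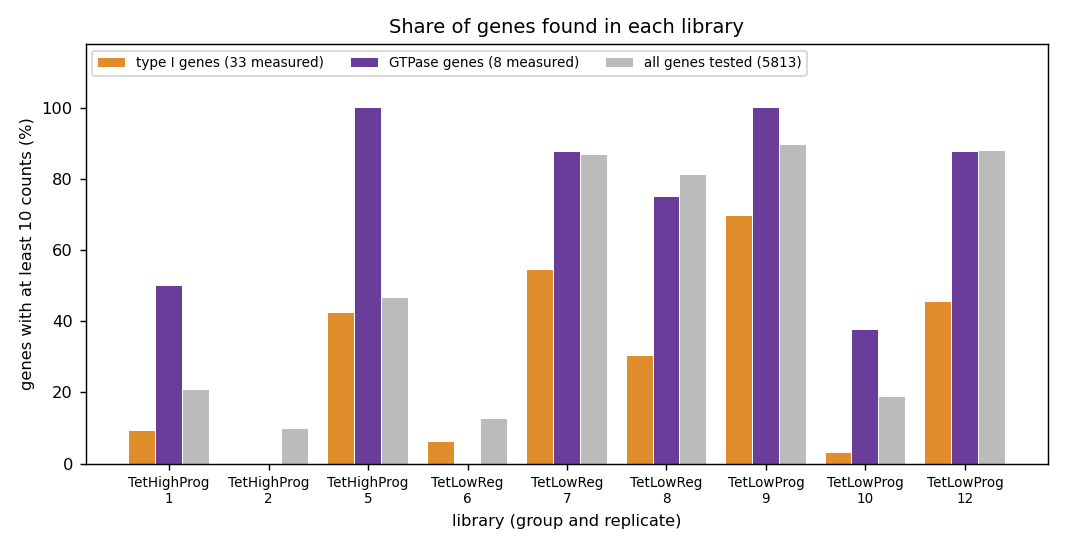
Share of genes found with at least 10 counts (vertical axis, percent) in each of the 9 libraries (horizontal axis) for the 33 type I genes, the 8 measured GTPase genes and the 5813 genes tested. All 8 GTPase genes were found in TetHighProg 5 and TetLowProg 9, and neither TetHighProg 2 nor TetLowReg 6 held any of them. The 5813 genes tested had passed a filter on low counts, and the 33 type I genes had not been filtered.

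The GTPase genes were found in more libraries than the type I genes. Each of the 8 was found in 4 to 6 of the 9 libraries, whereas 11 of the 33 type I genes reached 4 libraries and none of the 41 reached 7. All 8 were found in TetHighProg 5 and TetLowProg 9, 7 in TetLowReg 7 and TetLowProg 12, 6 in TetLowReg 8, 4 in TetHighProg 1, 3 in TetLowProg 10 and 0 in TetHighProg 2 and TetLowReg 6. The type I genes numbered 3, 0 and 14 of 33 in TetHighProg, 2, 18 and 10 in TetLowReg and 23, 1 and 15 in TetLowProg.

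**Figure D2:**
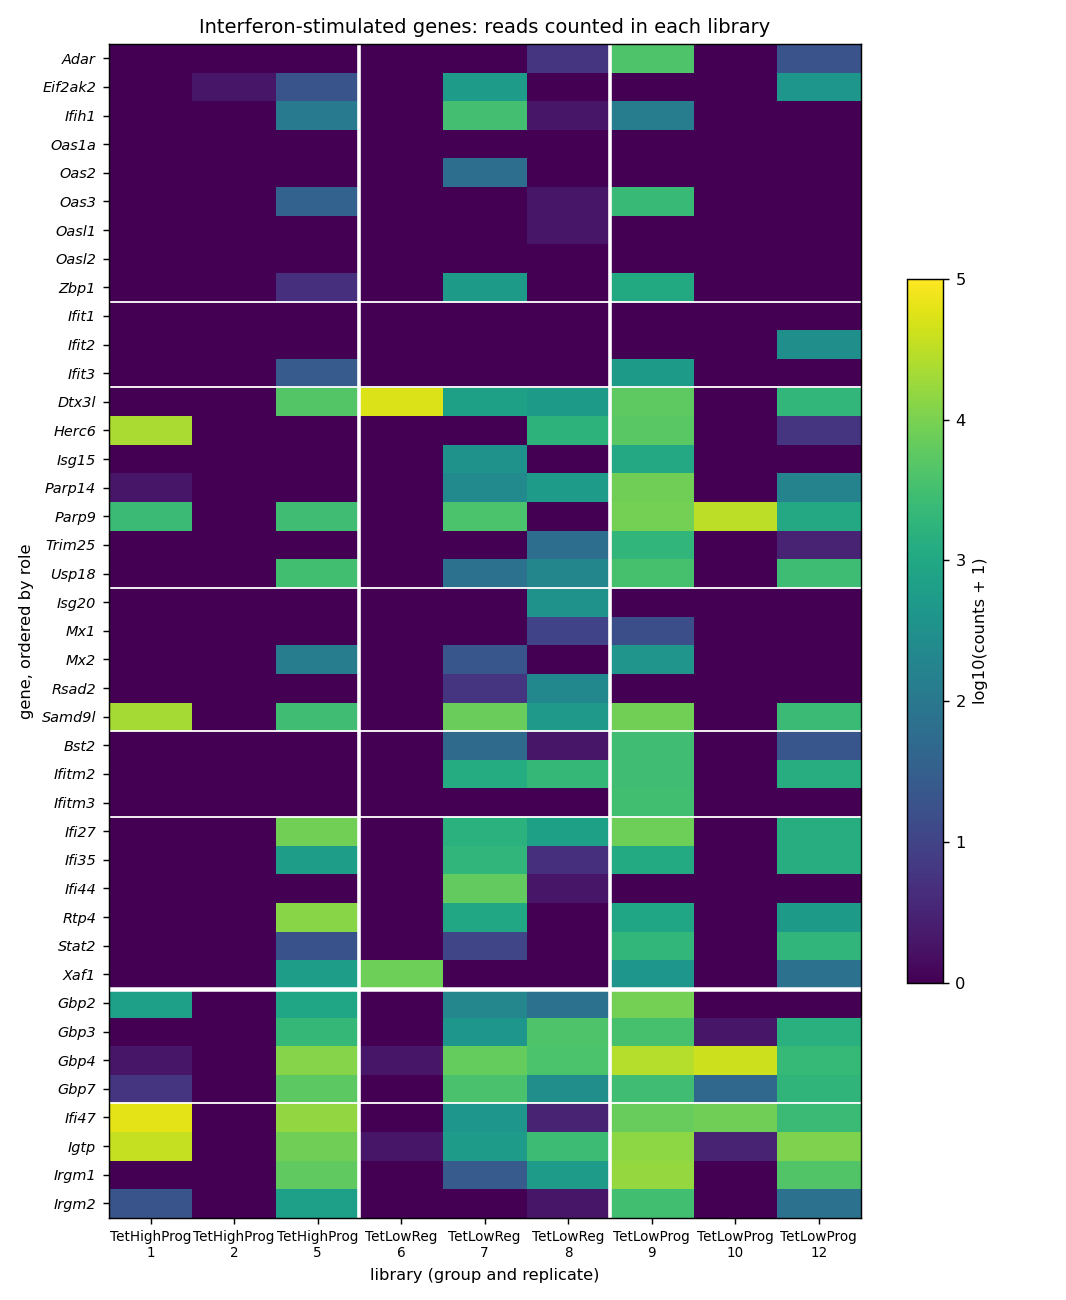
Reads counted on the 41 measured genes (rows, by role) in the 9 libraries (columns), as log10(counts + 1) by color from 0 to 5. White horizontal lines part the roles, with the thick one between type I and GTPase genes, and vertical lines part the groups. The GTPase rows at the bottom are filled in more libraries than the type I rows above.

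Among the immunity-related GTPases, which act on the vacuoles that hold intracellular parasites and bacteria, Ifi47 (also called Irg47) was lowest in TetLowReg. Ifi47 had 62742, 0 and 15719 counts in TetHighProg 1, 2 and 5, 0, 421 and 2 in TetLowReg 6, 7 and 8, and 6770, 8253 and 2539 in TetLowProg 9, 10 and 12. All 3 TetLowProg libraries lay above all 3 TetLowReg libraries, while TetHighProg held both the highest library and one at 0. As CPM, the counts of a gene scaled to the total of its library, Ifi47 had means of 857 ± 950 (SD, n = 3) in TetHighProg, 3.89 ± 6.64 in the TetLowReg libraries and 198 ± 124 in the TetLowProg libraries. TetLowReg against TetLowProg had an exact permutation p of 0.1 (two-sided), the smallest that 3 libraries against 3 allow. Any gene whose groups do not overlap gives this value, so it adds nothing to the order of the libraries. The pooled share in TetLowReg was 0.0299 times that in TetLowProg (95% counting interval 0.0271 to 0.0329). In the edgeR fit the log2 fold change of Ifi47 was -4.65 (SE 3.76, unadjusted p = 0.215) and it did not pass after adjustment. Ifi47 was the only one of the 41 genes whose groups did not overlap in this comparison and 1 of the 24 tested, against 3.42% of all tested genes.

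Igtp (Irgm3), a GTPase that tethers to endoplasmic reticulum and lipid droplets, had 36008, 0 and 8063 counts in TetHighProg, 1, 567 and 2658 in TetLowReg and 14360, 2 and 10718 in TetLowProg. Irgm1, needed for resistance to mycobacteria, had 0, 0 and 5896 counts, 0, 26 and 549, and 16194, 0 and 4479 in the same order. Irgm2 had 19, 0 and 649 counts, 0, 0 and 1, and 3060, 0 and 77. The counts of each gene overlapped between groups, with the highest TetLowReg library below the second highest library of TetLowProg for all 3. The fitted log2 fold changes of TetLowReg against TetLowProg were -1.41 (SE 3.52) for Igtp, -3.36 (SE 4.62) for Irgm1 and -7.61 (SE 4.62) for Irgm2. None passed the test. Igtp and Irgm2 overlap on the same strand in GENCODE M39, and reads assigned to both were dropped, so their separate counts are uncertain. Ifi47 likewise shares exon sequence with the annotated gene Or2v1.

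The guanylate binding proteins coat such vacuoles and cytosolic bacteria and help to activate inflammasomes. Gbp4 was the largest of them, with 1, 0 and 12477 counts in TetHighProg, 1, 6469 and 3795 in TetLowReg and 27782, 41092 and 2264 in TetLowProg. In TetLowProg 10, a library of 1148 genes, Gbp4 alone made up 83.2% of the counts on GTPase genes. Gbp2 had 651, 0 and 880 counts in TetHighProg, 0, 202 and 77 in TetLowReg and 8953, 0 and 0 in TetLowProg. Its high value in TetLowProg 9 stood against 0 in both other libraries of that group. Gbp3 had 0, 0 and 2168, then 0, 431 and 4204, then 3455, 1 and 1510. Gbp7 had 5, 0 and 5527, then 0, 3605 and 299, then 2933, 49 and 1876. For all 4 genes, the groups overlapped in every comparison. Gbp4 overlaps Gbp8 and Gbp9 in the annotation, and the Gbp genes are close copies of one another, so reads that fit several of them were left out.

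Together the 8 GTPase genes took 0.298%, 0% and 0.226% of the gene counts in TetHighProg, 9.07e-06%, 0.0322% and 0.0706% in TetLowReg, and 0.230%, 0.196% and 0.0745% in TetLowProg. The 0 in TetHighProg 2 has an upper 95% Clopper-Pearson limit of 1.46e-05%, which covers counting error only. The means were 0.175% ± 0.155, 0.0343% ± 0.0354 and 0.167% ± 0.0818 (SD, n = 3). Every TetLowReg library lay below every TetLowProg library, but by a narrow margin between TetLowReg 8 and TetLowProg 12 (95% Clopper-Pearson intervals 0.0693% to 0.0719% and 0.0735% to 0.0754%). With the gene of most counts removed from each library, the difference of -0.133 percentage points became -0.0558, and the groups then overlapped, since TetLowReg 8 (0.0450%) lay above TetLowProg 10 (0.0330%) and TetLowProg 12 (0.0405%).

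The share of T cell markers was low in TetLowReg 7 and 8, as the GTPase share was, but it was the highest of all in TetLowReg 6 (0.674%), where GTPase genes had 2 counts. Per count on the 7 T cell markers, a scale chosen after the data were seen, GTPase genes had 0.638, 0 and 0.625 counts in TetHighProg, 1.35e-05, 0.747 and 0.671 in TetLowReg and 0.506, 0.420 and 0.422 in TetLowProg. The range was therefore 0.420 to 0.747 in 7 of the 9 libraries, and on this scale TetLowReg 7 and 8 lay above all 3 TetLowProg libraries, the opposite of their order by share of gene counts. The part of the markers of T cells, or of the B cell, macrophage, Cd4 and globin markers in TetLowReg 7 and 8, in the GTPase result was not tested.

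**Figure D3:**
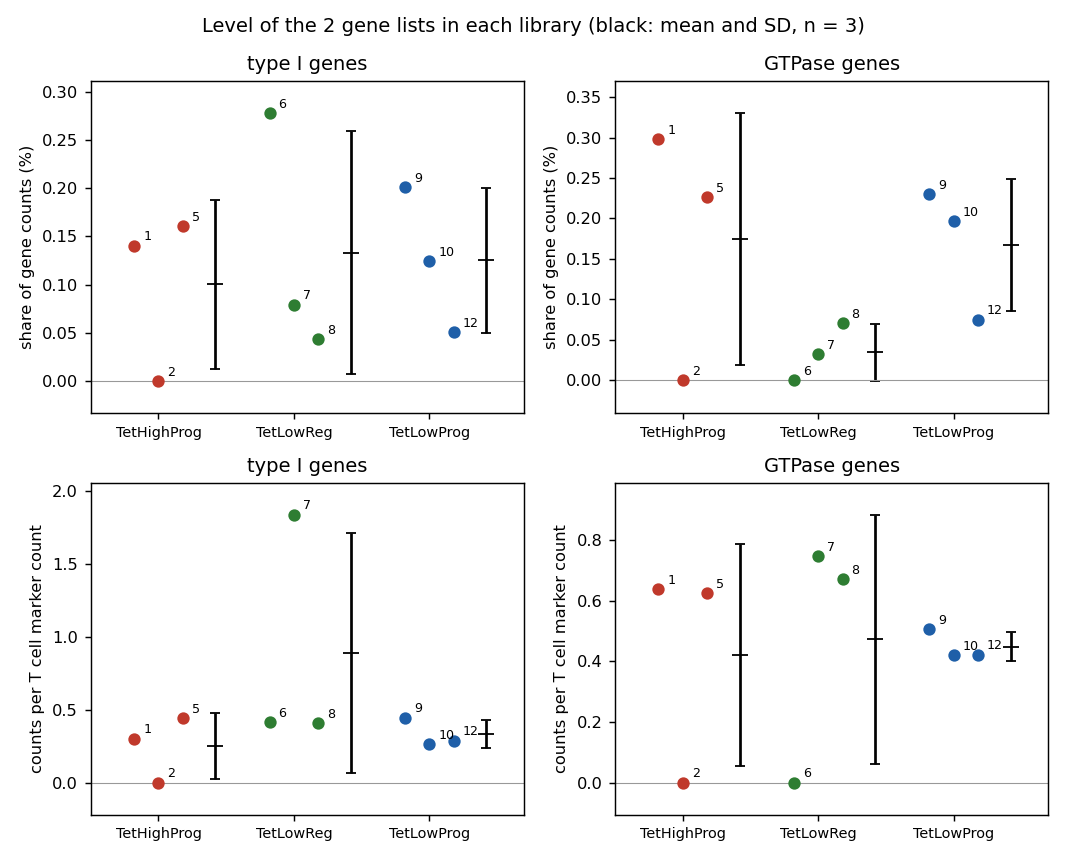
Level of the type I and GTPase genes in each library, as the share of gene counts (upper panels, percent) and as counts per count on 7 T cell markers (lower panels). Points are libraries with their replicate numbers and black bars are the mean and SD of 3 libraries. The GTPase shares of TetLowReg lie below those of all other libraries except TetHighProg 2, whereas per T cell marker count TetLowReg 7 and 8 are the highest.

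The type I genes had no such order between groups. They took 0.141%, 3.95e-06% and 0.161% of gene counts in TetHighProg, 0.278%, 0.0790% and 0.0431% in TetLowReg and 0.201%, 0.124% and 0.0507% in TetLowProg. The means were 0.1004% ± 0.0875, 0.133% ± 0.127 and 0.125% ± 0.0754 (SD, n = 3), and the groups overlapped widely. Single genes carried the list in the sparse libraries. Dtx3l made up 87.4% of it in TetLowReg 6, Parp9 100% in TetLowProg 10 and Herc6 48.9% in TetHighProg 1, while the largest share in TetLowProg 9 was 12.2%, for Parp9. Without TetLowReg 6, the difference of 0.0330 percentage points between TetLowReg and TetHighProg turned to -0.0394. Per T cell marker count, type I genes had 0.302, 1.28e-05 and 0.443 counts in TetHighProg, 0.413, 1.83 and 0.409 in TetLowReg and 0.444, 0.265 and 0.287 in TetLowProg. TetLowReg 7, with the lowest share of T cell markers, stood above all other libraries on that scale, and the means of 0.248 ± 0.226, 0.885 ± 0.822 and 0.332 ± 0.0975 (SD, n = 3) overlapped in their spread.

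Parp9 and Dtx3l, an ADP-ribosyltransferase and the ubiquitin ligase that works as its partner, are neighbors on opposite strands and overlap by 682 bases in GENCODE M39. Dtx3l had 0, 0 and 4559 counts in TetHighProg, 53563, 700 and 525 in TetLowReg and 5744, 0 and 2064 in TetLowProg. Parp9 had 2548, 0 and 2948, then 0, 3784 and 0, then 8925, 31194 and 1036. Both were found in TetHighProg 5, TetLowReg 7, TetLowProg 9 and TetLowProg 12. In the sparse libraries one was high with the other at 0, namely Dtx3l in TetLowReg 6 and Parp9 in TetHighProg 1 and TetLowProg 10. The rest of the ISG15 and ubiquitin system was found in fewer libraries. Usp18, the protease that removes ISG15 and dampens Ifnar2 signaling, had 0, 0 and 3091 counts, 0, 75 and 197, and 3483, 0 and 2838. Parp14 had 1, 0 and 0 counts, 0, 239 and 545, and 8320, 0 and 168. Isg15 itself, the ubiquitin-like modifier, was found only in TetLowReg 7 (352 counts) and TetLowProg 9 (1020 counts), although it is a standard marker of the type I response. Herc6 and Trim25 were each found in 3 or fewer libraries.

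Of the antiviral effectors, Samd9l, an inhibitor of translation, was found most widely, with 21459, 0 and 2946 counts in TetHighProg, 0, 7132 and 516 in TetLowReg and 8463, 0 and 2615 in TetLowProg. Its groups overlapped throughout. The classical effectors were rare. Mx1 reached 10 counts only in TetLowProg 9 (15 counts), Mx2 had 132, 21 and 400 counts in TetHighProg 5, TetLowReg 7 and TetLowProg 9, Rsad2 (viperin) was found only in TetLowReg 8 (219 counts) and the exonuclease Isg20 only in TetLowReg 8 (370 counts).

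The IFIT proteins and 2-5A synthetases, which bind foreign RNA or switch on its degradation, were the least detected roles. Ifit1, Oas1a and Oasl2 had 0 counts in all 9 libraries and Oasl1 had 1 count in 1 library. Ifit2 was found only in TetLowProg 12 (313 counts), Ifit3 in TetHighProg 5 (26 counts) and TetLowProg 9 (520 counts), Oas2 only in TetLowReg 7 (62 counts) and Oas3 in TetHighProg 5 (37 counts) and TetLowProg 9 (2416 counts). At this depth, a level of Ifit1 below 3 counts per library was not detectable, and reads shared among Ifit or Oas copies were not counted. The RNA sensor Ifih1 (MDA5) had 108 counts in TetHighProg 5, 3188 in TetLowReg 7 and 129 in TetLowProg 9. The nucleic acid sensor Zbp1, the kinase Eif2ak2 (PKR) and the RNA editing enzyme Adar were found in 2 or 3 libraries each.

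The membrane proteins, which block viral entry or tether new virions, had no counts in the high avidity libraries. Ifitm2 had 0 counts in all 3 TetHighProg libraries, 0, 1247 and 2183 in TetLowReg and 2981, 0 and 1312 in TetLowProg. It was thus found in 4 of the 6 low avidity libraries, each with 6443 genes or more, and lay at 0 in all 4 sparse libraries and in TetHighProg 5. Pooled over the groups, Ifitm2 was at least 1243-fold higher in TetLowReg than in TetHighProg, with 3 counts over the group as the limit for TetHighProg, and at least 1253-fold higher in TetLowProg. The exact permutation p was 0.4 for both comparisons. Its fitted log2 fold change was 9.97 for TetLowReg (SE 4.88, unadjusted p = 0.0411, adjusted p = 0.233) and 8.75 for TetLowProg (SE 4.49, unadjusted p = 0.0515, adjusted p = 0.193). Bst2 (tetherin) had 0 counts in TetHighProg, 0, 53 and 1 in TetLowReg and 2961, 0 and 21 in TetLowProg, and Ifitm3 was found only in TetLowProg 9 (3074 counts). For Bst2 in TetLowProg against TetHighProg the fitted value was 7.93 (SE 3.81, unadjusted p = 0.0376, adjusted p = 0.193, exact permutation p = 0.4). Without TetLowProg 9, the value for Bst2 was 2.39. Of the 4 libraries with Ifitm2, 3 were those with B cell markers and TetLowProg 9, with 2981 counts, had B cell, Cd4 and globin markers at 0 and macrophage and dendritic cell markers at 0.00227%. The part of these markers in the Ifitm2 result was not tested.

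Among the remaining type I genes, Ifi27 had 0, 0 and 8507 counts in TetHighProg, 0, 1593 and 696 in TetLowReg and 7721, 0 and 1296 in TetLowProg. Rtp4, a chaperone of G protein-coupled receptors, had its highest value in TetHighProg 5 (0, 0 and 12799), against 0, 933 and 0 in TetLowReg and 866, 0 and 534 in TetLowProg. Ifi35 had 0, 0 and 607, then 0, 1927 and 4, then 1162, 0 and 1287. For these 3 genes, TetHighProg 5 alone supplied all the counts of its group, and the groups overlapped. Xaf1, a regulator of apoptosis, had 0, 0 and 621 counts, then 7718, 0 and 0, then 428, 0 and 72. Stat2, which carries the type I signal to the nucleus, had 0, 0 and 17 counts in TetHighProg, 0, 10 and 0 in TetLowReg and 2008, 0 and 1963 in TetLowProg. Stat2 was thus near the limit outside TetLowProg 9 and 12. Ifi44 was found only in TetLowReg 7 (6368 counts). Ifi27 and Ifi35 overlap other genes on the opposite strand, and the counting ignored strand.

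Per length, as reads per kilobase of exon and per total of gene counts (RPKM), the leading gene differed from library to library. Ifi47 led in TetHighProg 1 (660 RPKM) and TetHighProg 5 (244 RPKM), ahead of Igtp (237 RPKM) and Rtp4 (133 RPKM). Ifitm2 led in TetLowReg 7 (34.3 RPKM) and TetLowReg 8 (133 RPKM). In TetLowProg, Gbp2 led in replicate 9 (96.2 RPKM), Parp9 in replicate 10 (247 RPKM) and Igtp in replicate 12 (74.7 RPKM). GTPase genes therefore headed 4 of the 7 libraries in which more than 2 of the 41 genes were found.

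The genes that carry the interferon signal were found unevenly as well. Of 6 ligand genes, Ifng was found in TetLowReg 7 (2349 counts) and TetLowProg 9 (11244 counts) and had at most 1 count elsewhere, and Ifnb1, Ifna1, Ifna2, Ifna4 and Ifna5 had 0 in all libraries. The receptor chain Ifngr1 was found in 8 of 9 libraries, with 4937, 2426 and 740 counts in TetHighProg, 1, 8915 and 9873 in TetLowReg and 19045, 1874 and 48709 in TetLowProg. Ifnar1 had 1, 0 and 1 counts, 0, 0 and 687, and 10142, 0 and 6508, and Ifnar2 had 0, 0 and 24, 0, 707 and 1, and 4227, 0 and 968. Ifngr2 had 0, 0 and 1 counts, 0, 108 and 6, and 0, 53 and 1305. Both chains of the type I receptor were found together only in TetLowProg 9 and 12. Irf9, the DNA-binding partner of Stat2, was found only in TetLowProg 9 (4806 counts) and TetLowProg 12 (329 counts), and Irf7 only in TetLowProg 9 (8139 counts). Irf1, an early target of interferon gamma, had 1871, 0 and 4829 counts in TetHighProg, 5182, 324 and 17 in TetLowReg and 36552, 0 and 1521 in TetLowProg. The kinase Jak1, which both receptors use, had 150521, 3 and 28319 counts, 1, 28406 and 28439, and 38625, 160756 and 51210. Jak2, the second kinase of the gamma receptor, had 0 counts in TetHighProg, 0, 1817 and 343 in TetLowReg and 932, 0 and 4015 in TetLowProg, and Tyk2, of the type I receptor, was found in TetHighProg 5 (548 counts), TetLowProg 9 (6542 counts) and TetLowProg 12 (3342 counts). The feedback inhibitors Socs1 and Socs3 were found in 4 and 3 libraries, all of them among the 5 with many genes. In the edgeR test 0 of 4 receptors and 0 of the 6 tested signaling genes passed in either direction in any comparison. Against TetHighProg, the edgeR test gave an unadjusted p under 0.05 for 1 of these 6 in TetLowReg (Jak2, adjusted p = 0.233), where 19.5% of all tested genes had one. In TetLowProg it gave 2 of 6 (Jak2 and Socs3, adjusted p = 0.193 for both), where 25.4% of all tested genes had one.

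The comparison of TetLowReg with TetHighProg asked how low avidity cells of regressing tumors differ from high avidity cells of progressing ones. Of the 41 genes, 24 passed the filter on low counts, 16 type I and 8 GTPase genes, and counts and medians of fitted values cover those only. Calls needed a log2 fold change beyond 2 in size together with an adjusted p below 0.05. In edgeR no gene of the 24 was called, and 0% of the 5813 tested genes were called. At an unadjusted p under 0.05 there was 1 (Ifitm2), against 19.5% of all tested genes. No gene of the 41 had groups without overlap, against 5.80%. The median log2 fold change was 0.99 for type I genes (8 of 16 positive) and -2.10 for GTPase genes (2 of 8 positive), against 3.52 for all tested genes (72.7% positive). Taken instead over log2 ratios of the pooled shares of each group, with Ifitm2 and Bst2 at their bounds, the medians were 0.69 and -2.79. These directions rest on TetHighProg 5 and on the tool. Without TetHighProg 5 the fitted medians were 6.36 for type I genes and 3.27 for GTPase genes, against 5.80 for all tested genes, and with limma-voom they were 3.70 and 4.74, against 6.34. DESeq2, which gave an adjusted p for fewer of the genes, turned the type I median to -0.72 with default size factors and -1.07 with poscounts, with GTPase medians of -1.90 and -4.12. In edgeR on the 2 groups alone, the medians were -0.69 for type I genes and -1.66 for GTPase genes, against 0.35 for all genes tested. The median of all tested genes thus depended on the filter, and was 1.31 with no filter and 0.63 with a strict one. The GTPase medians there were -2.37 and, over 3 genes, -0.19. Without TetLowReg 7 the type I median was -2.18. All 4 immunity-related GTPases were negative in the edgeR fit, with a median of -4.57, but 3 of 4 were without TetHighProg 5 and 2 of 4 with limma-voom. The lowest was Ifi47 at -6.94 (SE 4.19, unadjusted p = 0.0972, adjusted p = 0.267).

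Other tools called a few genes there. DESeq2 with default size factors called 1 of the 15 it tested, Ifitm2 as higher, against 32.8% of the genes it gave an adjusted p. With poscounts size factors it called 3 of 14, against 24.0% of all genes. These were Ifitm2 as higher, against 22.8% called higher, and Ifi47 and Irgm2 as lower, against 1.18% called lower. The limma-voom fit with sample weights called 7 of 24 (Dtx3l, Gbp3, Gbp4, Gbp7, Ifi27, Ifitm2 and Parp14), all higher, against 41.5%.

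TetLowProg against TetHighProg, which share progressing tumors and differ in avidity, uses the same TetHighProg libraries as the comparison before, so the results are not independent. In edgeR 0 of the 24 genes and 0% of all genes were called, and 1 (Bst2) had an unadjusted p under 0.05, against 25.4%. No gene of the 41 had groups without overlap, against 7.17%. The median log2 fold change was 0.44 for type I genes (9 of 16 positive) and 0.68 for GTPase genes (5 of 8 positive), against 4.27 for all tested genes (73.5% positive). Over log2 ratios of pooled shares, with Ifitm2 and Bst2 at their bounds, the medians were 1.12 and 1.31. Single libraries and the tool moved the fitted medians widely. They were 7.10 and 6.64 without TetHighProg 5, against 6.85 for all tested genes, and -0.26 and -1.22 without TetLowProg 9, against 1.73. With limma-voom they were 6.85 and 6.54, against 7.14. With DESeq2 they were 1.80 and 1.55 at default size factors, against 5.09, and -0.02 and -2.12 with poscounts, against 4.97. DESeq2 called Ifitm2 with default size factors, against 40.7%, and none with poscounts, against 20.2%. With limma-voom, 11 of the 24 were called, all higher (Dtx3l, Gbp3, Gbp4, Gbp7, Ifi27, Ifi35, Ifitm2, Irgm1, Parp14, Stat2 and Usp18), against 49.9%.

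TetLowReg against TetLowProg compared low avidity cells from tumors of opposite outcome. No gene was called in edgeR, among the 24 or among all genes (0%), and 0 of the 24 had an unadjusted p under 0.05, against 0.929% of all genes. DESeq2 called 0 of them with default size factors, against 1.22%, and 0 with poscounts, against 0.396%. The limma-voom fit called 0, against 0%. The median log2 fold change was -2.61 for GTPase genes (2 of 8 positive) and 0.45 for type I genes (9 of 16 positive), against -0.35 for all tested genes (44.5% positive). Over log2 ratios of pooled shares, a different quantity, the GTPase median was -3.67 and the type I median was -0.80. The type I median had no stable sign. With single libraries left out it ran from -3.37 without TetLowReg 7 to 1.41 without TetLowProg 9. It was also negative without TetLowReg 6 (-0.50), TetLowReg 8 (-0.91), TetLowProg 10 (-0.46) or TetLowProg 12 (-0.87). Library size in place of TMM gave -0.69, limma-voom -0.66 and the strict filter, over 2 type I genes, -0.18. Over the 8 type I genes of DESeq2 with default size factors it was -1.27. With only the 6 libraries without B cell markers, which leave TetLowReg 6 alone in its group, it was -8.33. With only the 5 libraries of many genes it was -0.04. The GTPase median was negative under every alternative run. All 4 immunity-related GTPases were negative, with a median of -4.01, against -0.54 for the 4 guanylate binding proteins. With standard errors from 3.31 (Gbp4) to 5.13 (Ifih1) on the log2 scale, none of these values differed from 0 beyond the spread of the libraries.

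**Figure D4:**
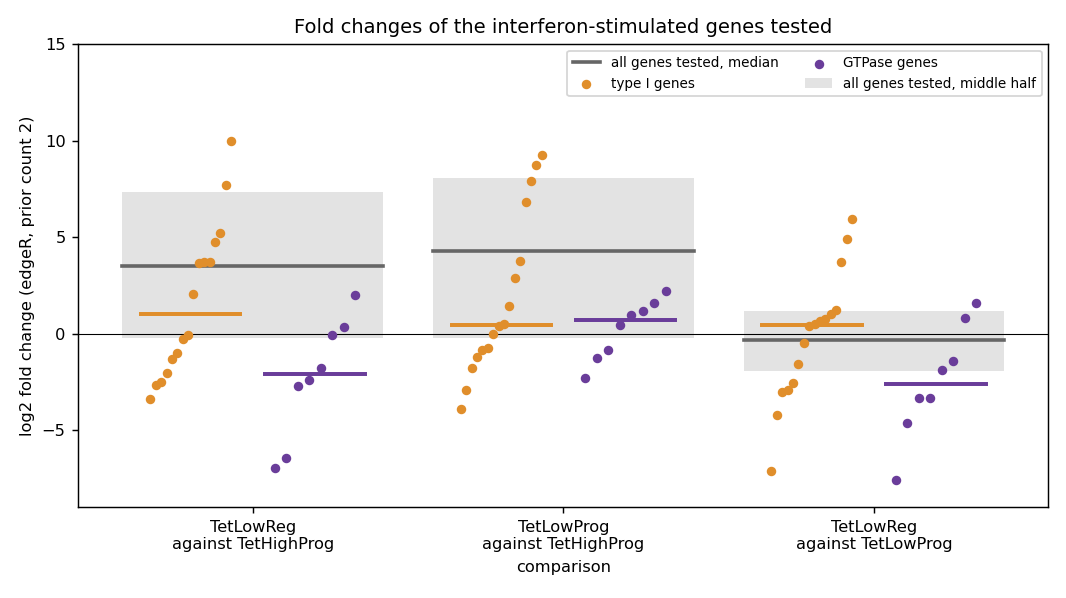
Log2 fold change (vertical axis, edgeR with a prior count of 2) of the 16 type I and 8 GTPase genes tested, in the 3 comparisons (horizontal axis). Colored bars are the medians of each list, the gray line is the median of all 5813 tested genes and the gray box their middle 50%. In TetLowReg against TetHighProg, 6 of 8 GTPase genes lie below 0 while the median of all genes is 3.52. That median depends on the genes kept by the filter, and was 0.35 in edgeR on the 2 groups alone.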

How the data were processed

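RNA of tetramer-sorted T cells was copied and amplified by the Smart-seq2 method. The authors aligned the reads to the mouse build GRCm39 with STAR 2.7.6a and deposited, for each library, the raw counts of reads on every gene without normalization. The methods name featureCounts, while the tables have the layout of the gene counts of STAR, and the annotation release is not given in the sources used here. Reads on several places or on overlapping genes are in 4 summary lines that were left out, and the unstranded column was used, since 50.2% to 50.8% of stranded counts fell on one strand.

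Identifiers were matched to symbols through GENCODE M39 (28645 of 32976 rows), which also gave exon lengths. Groups came from the sample titles. The main test was the quasi-likelihood test of edgeR 4.0.16 (default filter, prior count 2, TMM scaling by 0.600 to 1.82, common dispersion 8.12), run in R 4.3.3 on all 9 libraries in one model, and p-values were adjusted by Benjamini-Hochberg over 5813 genes. DESeq2 1.42.0 and limma 3.58.1 (voom with sample quality weights) were alternatives. The edgeR test was tested on simulated data. It found the changed genes at a low spread between libraries but none of them at the spread estimated here. A lack of calls in edgeR therefore does not show that genes were unchanged. Single genes were also compared with exact permutation tests. A gene was found at 10 counts, and a group at 0 was set at 3 counts over the group for bounds. The other alternatives were no filter or a strict one, library size scaling, 2 groups alone, other count minimums and each library left out.

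Of the lists as first written, 1 signaling gene and 1 B cell marker were left out and are not reported here. The genes and lists were chosen with earlier results of these data known. Counts in every library are given for genes found in at least 4 libraries, and other genes by range. Figures were drawn with matplotlib 3.10.9.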

Additional observations from a re-analysis of the deposited data

How the results depend on the processing

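The spread within groups limits every comparison, and a count of 0 still allows up to 3 counts in a library. No paired analysis was possible because the groups compared share no replicate number, although TetHighProg and TetLowProg came from the same set of tumors. Of 274 alternative values, 256 kept their direction and side of the threshold or moved by less than the spread between libraries, and the causes of the others were not tested except where fewer libraries were used. A difference of means could change its sign within that spread, so the 256 do not measure stability. The difference in genes found between TetLowReg and TetLowProg counted among them in 11 of 11 alternatives, yet ran from -12.2 to 1.5 with each library left out. The number of interferon-stimulated genes called in TetLowReg against TetHighProg rose from 0 to 1 with DESeq2 at default size factors, 3 with poscounts and 7 with limma-voom. Of all genes, these called 32.8%, 24.0% and 41.5%. In TetLowProg against TetHighProg it rose to 1 with default size factors and 11 with limma-voom, against 40.7% and 49.9% of all genes. It remained 0 in TetLowReg against TetLowProg under every alternative run, where DESeq2 with default size factors called 1.22% of all genes. With each library left out it was 0 in all 3 comparisons. That shows no stability, since edgeR also called no changed gene in simulated data at the spread estimated here. Ifitm2 passed with DESeq2 and limma-voom in TetLowReg (adjusted p from 0.00567 to 0.515 over its alternatives) and could not be fitted in TetLowReg without the libraries with B cell markers, where its counts were 0. The fitted Bst2 value in TetLowProg against TetHighProg ran from 2.39 without TetLowProg 9 to 25.3 with DESeq2 at default size factors. The fitted Ifi47 value in TetLowReg against TetLowProg stayed negative, from -11.6 to -3.28.

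Library size in place of TMM moved the median log2 fold change of all tested genes from 3.52 to 3.05, from 4.27 to 4.56 and from -0.35 to -1.23 in the 3 comparisons.

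Some differences of means rest on single libraries. The difference in genes found between TetLowReg and TetHighProg (4.67) became -0.667 without TetLowReg 7 and -0.167 without TetHighProg 2, and that between TetLowReg and TetLowProg (-4.67) became 1.5 without TetLowReg 6 and 1.33 without TetLowProg 9. The type I share in TetLowReg minus TetHighProg ranged from -0.0394 to 0.0781 percentage points with each library left out. The GTPase share in TetLowReg minus TetLowProg stayed between -0.179 and -0.101, and was -0.0558 with the gene of most counts removed from each library. The next 2 choices were made after the data were seen. With only the 6 libraries without B cell markers, which leave TetLowReg 6 alone in its group, the difference in genes found between TetLowReg and TetHighProg was -7.67. There, the type I share differed by 0.178 from TetHighProg and by 0.115 from TetLowProg, the GTPase share by -0.213 from TetLowProg, and GTPase counts per T cell marker count by -0.421 from TetHighProg and -0.463 from TetLowProg. With only the 5 libraries of many genes, which leave TetHighProg 5 alone in its group, the type I share in TetLowReg minus TetHighProg was -0.0995.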
